A study of Rattus norvegicus with 6 samples.

Results

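The cyclins, cyclin-dependent kinases (CDKs), CDK inhibitors, pocket proteins and E2F factors were examined in RNA of sensory neurons from spontaneously hypertensive rats (SHRs), taken from the dorsal root ganglia (DRGs) of both sides at L1 and L2. The members were the protein-coding rows of the count table whose gene name belongs to these families, which gave 58 of 25689 genes. The rule used names and no measured value, although earlier results of these data were known when it was chosen. Family genes without a row under these names were not analysed here. The 58 members were read by role, with 7 S phase and mitotic genes, 24 genes of the G1 phase and its control, 9 genes around the neuronal kinase Cdk5, 11 genes of transcription and 7 others.

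The 2 groups were SHRs with the fat around the kidney removed by surgery (perirenal adipose tissue ablation, PRATA) and sham-operated SHRs, with 3 samples per group, and the comparison addresses how neurons of ganglia that project to this fat differ after its removal. The neurons were not selected by the tissue they innervate. All animals carried the wild type genotype and were 6 to 8 weeks old by the sample labels, while the study's methods give 12 weeks at purchase and collection 4 weeks after the operation. The cells were dissociated from the ganglia with enzymes and kept for 5 h in culture, where unequal speeds of adhesion to the dish were used to separate them from glial cells. Whether a sample held 1 animal or several is not given in the sources used here, so the tests below measure the spread between these samples.

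Cyclins activate CDKs, and the resulting kinases drive a dividing cell from G1 through DNA synthesis into mitosis. Inhibitors of the Cip/Kip and INK4 families block them, and pocket proteins such as Rb1 hold E2F factors at the promoters of cell cycle genes until CDKs phosphorylate them. Mature sensory neurons do not divide. In such neurons Cdk5, which is switched on by the activators p35 and p39 rather than by a classical cyclin, acts on the cytoskeleton and on synapses. Several other CDKs phosphorylate RNA polymerase II or its partners, among them Cdk7, which also activates other CDKs.

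Depth ranged from 5892967 counts (sham replicate 2) to 15226952 (sham replicate 1). Levels below are counts normalized by the TMM method and scaled to library size as CPM, on which 3 counts came to 0.197 to 0.509 CPM. Sham replicate 2 had the fewest reads and the most genes with at least 1 count, 23168, beside 18956 to 20672 in the other samples. PRATA replicate 3 and sham replicate 1 stood apart in the share of reads on the 7SL RNA gene Rn7sl1, with 5.40% and 5.63% beside 1.25% to 1.52% in the other 4 samples. The markers of the labelled cells were present, with each of 19 sensory neuron markers at 21.2 CPM or more on average in both groups. Markers of satellite glia were present as well, with summed levels of 3362 to 6462 CPM after PRATA and 4502 to 8754 CPM after the sham operation. Levels are not divided by gene length, so they are compared between samples and not between genes.

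With edgeR, 53 of the 58 members had enough counts to be tested, among 14919 genes in all, by the two-sided quasi-likelihood test. SE below stands for the standard error. No member had an adjusted p under 0.05 (Benjamini-Hochberg over all genes tested, edgeR), as for 0% of all genes, and the smallest adjusted p among the members was 0.156. DESeq2 and limma voom, run as alternatives, each gave 4 such members, named with E2f5 below. At an unadjusted p under 0.05, 4 members were higher after PRATA (7.55%, beside 8.19% of all genes tested) and 5 were lower (9.43%, beside 10.1%). Both shares were close to those of all genes. The median log2 fold change of the members was -0.014, beside 0.025 over all genes tested, with 26 members above 0 (49.1%, beside 52.0% of all genes) and 27 below. The groups did not overlap for 15 members, 8 with the PRATA samples above (15.1%, beside 11.6% of all genes) and 7 with them below (13.2%, beside 11.2%). The 9 members with an unadjusted p under 0.05 were the repressor-type E2Fs E2f4 and E2f5, the Cdk5 activators Cdk5r1 and Cdk5r2 with Cdk15, the transcriptional genes Ccnt1, Cdk7 and Ccnc, and Ccng2.

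**Figure D1:**
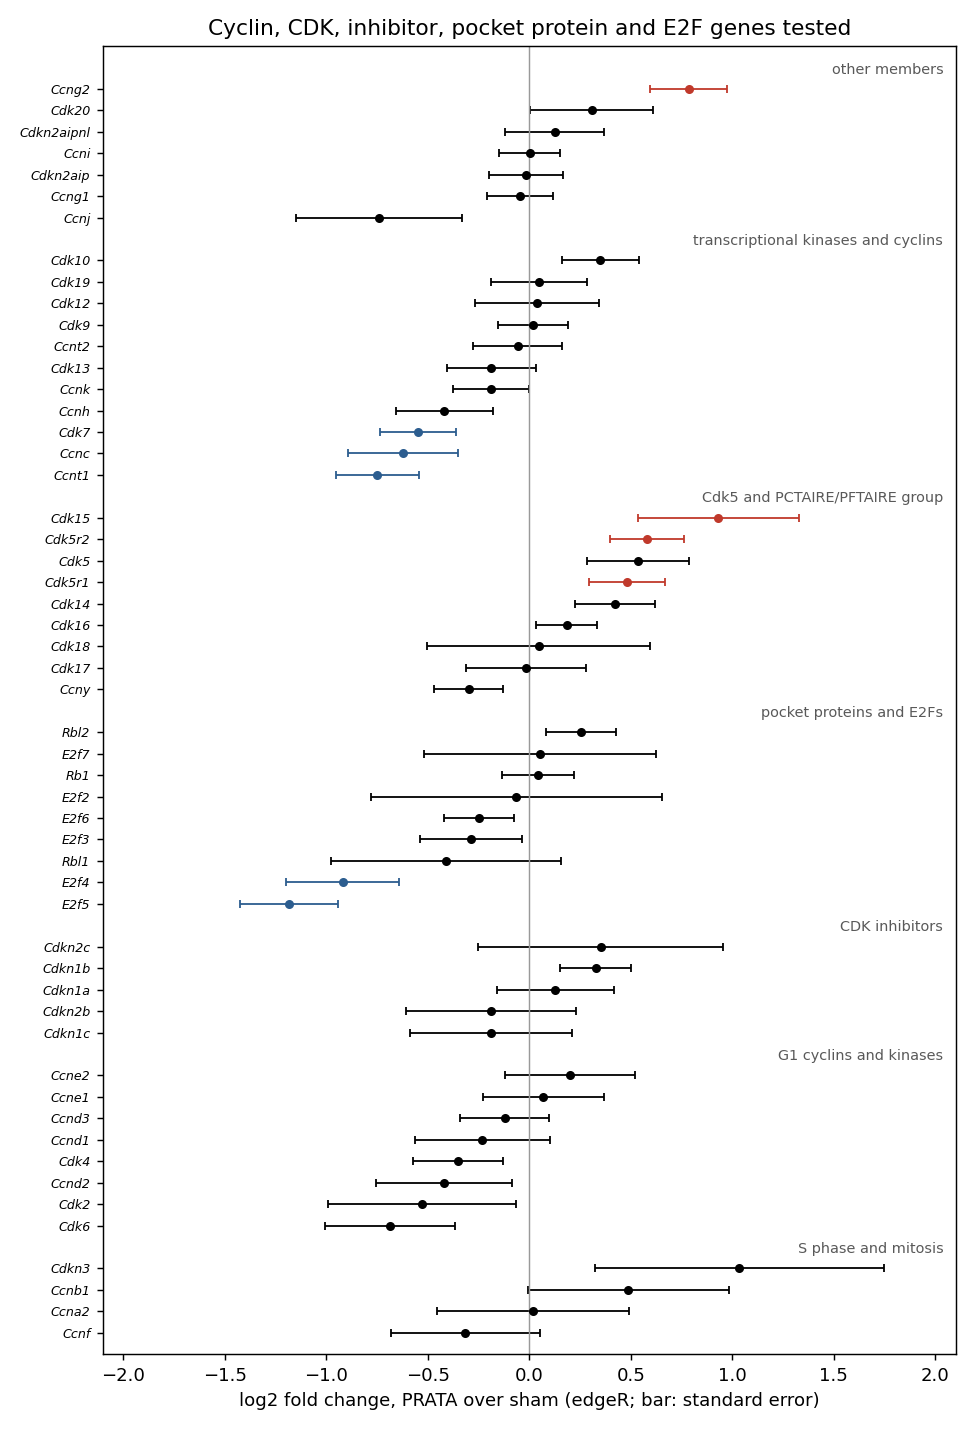
Log2 fold change of PRATA over sham for the 53 members tested, grouped by role, from edgeR's fit to the 6 samples; bars give the standard error, and red or blue points had an unadjusted p under 0.05 with a higher or lower level after PRATA. E2f5 lies lowest at -1.19, and the Cdk5 activators Cdk5r1 and Cdk5r2 lie at 0.48 and 0.58.

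The S phase and mitotic members had low counts in both groups, at most 94 reads in a sample, and 4 of the 7 could be tested. Cdk1, the kinase that starts mitosis, had 2, 4 and 4 reads in PRATA replicates 1, 2 and 3 and 6, 4 and 2 reads in sham replicates 1, 2 and 3. These counts are too low to be tested and do not separate the groups. Ccnb1, which encodes cyclin B1, the partner of Cdk1, was at 3.23, 1.83 and 2.77 CPM after PRATA and at 1.45, 3.12 and 1.13 CPM after the sham operation. The groups overlapped, and the log2 fold change was 0.49 (SE 0.50, adjusted p = 0.631, edgeR). Ccna2, a cyclin of S phase, lay between 0.945 and 1.68 CPM in all 6 samples, with a log2 fold change of 0.017. Ccnf, whose product is the substrate receptor of a ubiquitin ligase, averaged 3.94 ± 0.995 CPM in PRATA and 4.87 ± 1.69 CPM in sham samples (SD, n = 3). Cdkn3, a phosphatase that acts on CDKs, had 12, 17 and 7 reads after PRATA and 4, 2 and 11 after the sham operation, and its fold change of 1.03 on the log2 scale carried a standard error of 0.71. Ccnb3 had at most 3 reads in any sample.

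Ccna1, the cyclin A form best known from the male germ line, was the mitotic member whose groups stood apart. It had 15, 10 and 9 reads in PRATA replicates 1, 2 and 3 and 2, 3 and 4 reads in sham replicates 1, 2 and 3. In CPM too the groups were apart, at 0.712 to 1.94 against 0.138 to 0.468, yet the gene did not pass the filter on low counts and was not among the genes tested. Without the filter its log2 fold change was 1.83, with an unadjusted p of 0.0597 and an adjusted p of 0.388 (edgeR). It passed the filter without sham replicate 2, at 2.13 with an unadjusted p of 0.0396 (edgeR), and without sham replicate 3, at 2.03. With 2 to 4 sham reads, it did so through its PRATA samples alone, so these 2 fits are no support for a difference. Summed over the 7 mitotic members, the samples held 61 to 147 reads, which came to 9.65 to 11.5 CPM after PRATA and 8.69 to 10.2 CPM after the sham operation.

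**Figure D2:**
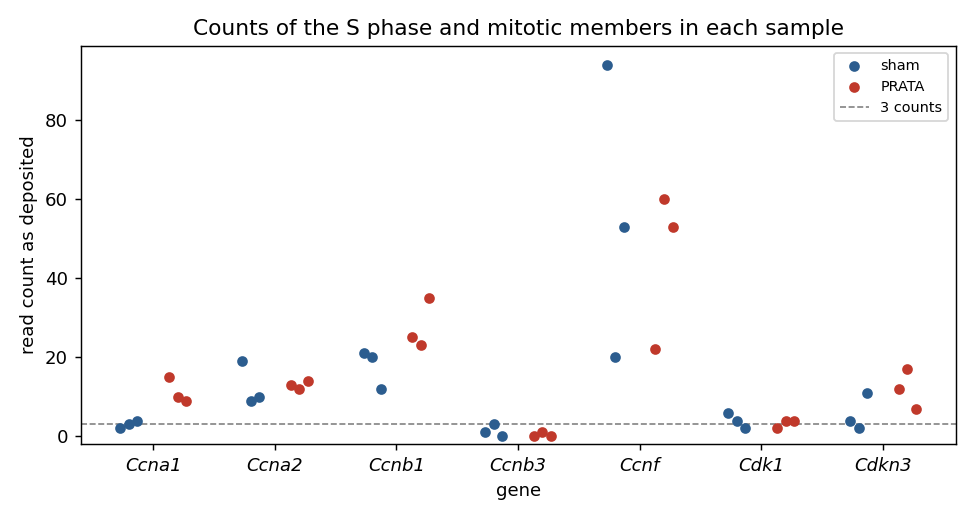
Read counts as deposited for the 7 S phase and mitotic members, with 1 point per sample, sham in blue and PRATA in red, and a dashed line at 3 counts. Cdk1 and Ccnb3 lie at 6 reads or fewer in every sample, while Ccna1 has 9 to 15 reads after PRATA and 2 to 4 after the sham operation.

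The promoter of Cdk1 is printed because it carries the sequence elements by which this class of genes is known to be kept silent in resting cells. Of the 58 members, 45 had a promoter in the RefSeq table by symbol, from 250 bases before to 50 after the annotated start in the GRCr8 build. The count table gives no positions, and its own build is not given in the sources used here. Capitals mark matches on either strand to an E2F site (TTTNNCGC), the cell cycle homology region (CHR, TTTGAA) and a CCAAT box (CCAAT), and the sequence lies at chr20:19265043-19265342 on the + strand.
Cdk1: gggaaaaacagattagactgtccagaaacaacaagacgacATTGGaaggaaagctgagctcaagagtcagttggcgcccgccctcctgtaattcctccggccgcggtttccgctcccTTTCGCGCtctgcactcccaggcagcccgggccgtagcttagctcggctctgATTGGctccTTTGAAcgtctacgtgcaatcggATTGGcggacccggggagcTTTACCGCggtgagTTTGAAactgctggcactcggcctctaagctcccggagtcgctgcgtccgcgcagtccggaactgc
This window held 2 E2F matches, 2 CHR matches and 3 CCAAT boxes. E2F matches occurred in 4 of the 45 member promoters, CHR matches in 9 and CCAAT boxes in 21, beside 4.92%, 18.3% and 37.5% of all 33469 promoters of this length. The 4 with an E2F match were Cdk1, E2f3, Rb1 and Rbl1. A match describes letters only, and these windows are short.

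Genes of DNA replication and mitosis outside the families were read from a list of 40, of which 36 were tested. Of these, 0 were higher and 2 lower at an unadjusted p under 0.05, beside 8.19% and 10.1% of all genes, and the median log2 fold change was -0.072. Its summed level was 185 to 225 CPM after PRATA and 224 to 268 CPM after the sham operation. Mcm7, a subunit of the replicative helicase, averaged 17.7 CPM after PRATA and 30.4 CPM after the sham operation, with a log2 fold change of -0.78 (adjusted p = 0.180, edgeR). The other gene was Mcm4 of the same helicase, with a log2 fold change of -0.60. Pcna, the sliding clamp of DNA polymerases, had the third smallest p, with a log2 fold change of -0.44 (adjusted p = 0.287, edgeR). The proliferation marker Mki67, chosen after its values were seen, ranged from 7.49 to 14.9 CPM after PRATA and from 5.38 to 13.9 CPM after the sham operation.

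Among the 8 G1 cyclins and kinases, no member reached an unadjusted p under 0.05, beside 8.19% of all genes higher and 10.1% lower. With so few members, 0 calls is close to these shares. The log2 fold change was above 0 for 2 of the 8 and below 0 for 6, where 52.0% of all genes were above 0. Ccnd1 encodes cyclin D1, which links growth signals to Cdk4 and Cdk6. It was at 20.5, 30.6 and 11.1 CPM in PRATA replicates 1, 2 and 3 and at 26.7, 23.4 and 22.9 CPM in sham replicates 1, 2 and 3. PRATA replicates 2 and 3 were the highest and the lowest of the 6 samples, so the groups overlapped, with a log2 fold change of -0.23 (SE 0.33, adjusted p = 0.743, edgeR). Its direction depended on PRATA replicate 3, without which it was 0.076. Cdk4 lay at 10.3 to 15.9 CPM after PRATA and 16.1 to 19.5 CPM after the sham operation without overlap, although its log2 fold change of -0.35 had an unadjusted p of 0.154. Cdk6 had the lowest fold change of this group, -0.69 on the log2 scale, with an unadjusted p of 0.0634 and overlapping samples. Ccnd2 and Ccnd3, the other D cyclins, had log2 fold changes of -0.42 and -0.12, and Cdk2, the partner of the E cyclins, one of -0.53. The E cyclins Ccne1 and Ccne2 lay at 2.64 to 5.62 CPM in all samples, with log2 fold changes of 0.069 and 0.20.

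None of the 5 CDK inhibitors tested passed the threshold in either direction, beside 8.19% of all genes higher and 10.1% lower. With so few members, 0 calls is close to these shares. Cdkn1a, which encodes p21, was at 21.0, 28.2 and 19.9 CPM after PRATA and 29.8, 19.04 and 14.3 CPM after the sham operation, with a log2 fold change of 0.13 (SE 0.29, adjusted p = 0.847, edgeR). The sham samples spanned the whole range of the PRATA samples. Its sign turned without PRATA replicate 2 (-0.0405) and without sham replicate 3 (-0.082). Cdkn1b, which encodes p27, a brake of cells that have left the cycle, was at 40.4, 44.7 and 39.3 CPM after PRATA and 37.5, 33.1 and 28.5 CPM after the sham operation. All PRATA samples were higher, by 0.33 on the log2 scale (SE 0.17, adjusted p = 0.345, edgeR). Cdkn1c, Cdkn2b and Cdkn2c lay at 0.756 to 7.05 CPM with overlapping groups, and Cdkn2a, which encodes an INK4 inhibitor and ARF, had 0 to 4 reads.

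Ccng1, which encodes cyclin G1, a gene that like Cdkn1a responds to DNA damage, averaged 182 ± 2.82 CPM in PRATA and 188 ± 17.1 CPM in sham samples (SD, n = 3). The groups overlapped, with a log2 fold change of -0.046.

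Among the 53 members tested, the lowest fold changes were those of E2f5 and E2f4. Both encode E2Fs that bind pocket proteins of the p107 and p130 type and repress cell cycle genes in resting cells. E2f5 (ENSRNOG00000010760) was at 6.33, 5.18 and 4.98 CPM in PRATA replicates 1, 2 and 3 and at 13.7, 9.99 and 13.6 CPM in sham replicates 1, 2 and 3. The highest PRATA sample was well below the lowest sham sample. The means were 5.50 ± 0.725 and 12.4 ± 2.11 CPM (SD, n = 3), a log2 fold change of -1.19 (SE 0.24, adjusted p = 0.156, edgeR). It was the member past both an absolute log2 fold change over 1 and an unadjusted p under 0.05, as were 3.23% of all genes tested in the downward direction and 1.17% upward. E2f4 (ENSRNOG00000015708) was at 22.7, 25.5 and 29.1 CPM after PRATA and 63.0, 29.7 and 53.3 CPM after the sham operation. Sham replicate 2, at 29.7 CPM, almost touched PRATA replicate 3 at 29.1 CPM, so the groups were separated by a narrow margin. The log2 fold change of E2f4 was -0.92 (SE 0.28, adjusted p = 0.180, edgeR).

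Both E2Fs had an unadjusted p under 0.05 in all 15 fits made, with log2 fold changes of -1.32 to -1.06 for E2f5 and -1.17 to -0.71 for E2f4. In 3 of these fits, DESeq2, limma voom with sample quality weights and edgeR without sham replicate 2, both also had an adjusted p under 0.05, with lowest values of 0.00545 for E2f5 in DESeq2 and 0.0309 for E2f4 in edgeR without sham replicate 2. DESeq2 and voom each placed 4 members under this adjusted p, E2f5, E2f4, Ccnt1 and Ccng2, where they placed 4.99% and 7.86% of all genes. Over all fits the adjusted p of E2f5 ran from 0.00545 to 0.55 and that of E2f4 from 0.0309 to 0.551.

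The other E2Fs and the pocket proteins moved less. E2f6, another repressor, lay at 19.04 to 23.0 CPM after PRATA and 23.9 to 28.1 CPM after the sham operation, which gave a log2 fold change of -0.25 with an unadjusted p of 0.186. E2f3, an activator, had a log2 fold change of -0.29 with overlapping groups, and E2f2, E2f7 and E2f8 were at 6.71 CPM or below in every sample. Rb1 itself was at 25.3, 24.3 and 19.8 CPM after PRATA and 20.3, 24.2 and 22.9 CPM after the sham operation, with a log2 fold change of 0.043 (SE 0.18, adjusted p = 0.921, edgeR). Rbl2, which encodes p130, the pocket protein most typical of resting cells, was at 28.9 to 29.7 CPM after PRATA and 22.1 to 28.9 CPM after the sham operation. Its groups touched without overlap, with a log2 fold change of 0.26 (adjusted p = 0.451, edgeR). Rbl1, which encodes p107, lay at 0.645 to 3.40 CPM.

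Around Cdk5 the fold changes ran in the other direction. Of the 9 members of this group, 7 had a log2 fold change above 0, beside 52.0% of all genes, with a median of 0.42. At an unadjusted p under 0.05, 3 were higher and none lower, where 8.19% and 10.1% of all genes were. Cdk5r2 (ENSRNOG00000037793), the gene of p39, was at 45.0, 41.5 and 52.7 CPM in PRATA replicates 1, 2 and 3 and at 26.9, 35.3 and 31.2 CPM in sham replicates 1, 2 and 3. All PRATA samples were higher, by 0.58 on the log2 scale (SE 0.18, adjusted p = 0.188, edgeR). Cdk5r1 (ENSRNOG00000021685), the gene of p35, was at 15.7, 14.7 and 16.1 CPM after PRATA and 11.5, 11.7 and 10.2 CPM after the sham operation. The samples of each group lay close together, at 15.5 ± 0.763 and 11.1 ± 0.809 CPM (SD, n = 3), with a log2 fold change of 0.48 (SE 0.19, adjusted p = 0.237, edgeR). Cdk5 (ENSRNOG00000008017) was at 48.8, 35.6 and 56.4 CPM after PRATA and 29.6, 42.0 and 25.8 CPM after the sham operation. Here sham replicate 2 was above PRATA replicate 2, and the log2 fold change of 0.53 (SE 0.25, adjusted p = 0.301, edgeR) did not reach an unadjusted p under 0.05.

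Cdk5r2 had an unadjusted p under 0.05 in 13 of 15 fits, Cdk5r1 in 5 and Cdk5 in 4. Cdk5r1 lost its call without any 1 sample other than sham replicate 2, with log2 fold changes of 0.43 to 0.52 throughout, while Cdk5r2 lost its call without PRATA replicate 3, at 0.48. In the 4 samples with the lower share of 7SL RNA reads, the log2 fold changes were 0.38 for Cdk5r2 and 0.47 for Cdk5r1, both with an unadjusted p above 0.05.

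The windows around the annotated starts of the 2 Cdk5 activators are shown as the pair whose levels were higher together. They come from RefSeq in GRCr8, at chr10:65981765-65982064 for Cdk5r1 and chr9:83864672-83864971 for Cdk5r2, both on the + strand, with capitals for the same 3 motifs.
Cdk5r1: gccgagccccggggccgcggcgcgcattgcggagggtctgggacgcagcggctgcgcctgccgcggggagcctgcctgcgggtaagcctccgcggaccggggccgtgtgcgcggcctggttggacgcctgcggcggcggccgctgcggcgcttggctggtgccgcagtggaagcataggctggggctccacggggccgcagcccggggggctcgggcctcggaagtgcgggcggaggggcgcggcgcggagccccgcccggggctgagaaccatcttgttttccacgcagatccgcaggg
Cdk5r2: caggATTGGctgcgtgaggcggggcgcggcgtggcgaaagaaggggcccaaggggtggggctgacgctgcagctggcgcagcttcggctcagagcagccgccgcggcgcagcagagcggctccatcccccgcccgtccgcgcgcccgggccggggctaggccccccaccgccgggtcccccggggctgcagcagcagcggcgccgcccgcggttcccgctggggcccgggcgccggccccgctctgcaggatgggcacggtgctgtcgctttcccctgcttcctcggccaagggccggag
Cdk5r1 held no match and Cdk5r2 a single CCAAT box on the reverse strand. Both windows were rich in G and C, at 78.0% and 78.3%, beside a median of 51.7% over all promoters and 64.3% over the member promoters. In the Cdk5r2 window the 50 bases after the annotated start open with atg, the letters of a start codon. This annotated start may therefore be that of the coding sequence, and the bases before it part of the transcript rather than a promoter. The motif and the share of G and C of Cdk5r2 carry this limit.

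Markers of sensory neurons were read beside these values. All 19 markers had a log2 fold change above 0, beside 52.0% of all genes, with a median of 0.55. At an unadjusted p under 0.05, 6 were higher, beside 8.19% of all genes. Tubb3 and Calca were among the 6, with log2 fold changes of 0.81 and 0.85. The summed level of the 19 ranged from 15630 to 23090 CPM after PRATA and from 10620 to 16210 CPM after the sham operation, and no marker was at 0. In bulk samples, fewer cells of a type and less RNA per cell cannot be told apart. Set against each sample's mean log2 level of these markers, which is an alternative chosen after the values were seen, the difference between the groups was 0.014 for Cdk5r2, -0.094 for Cdk5r1 and -0.027 for Cdk5, and the groups overlapped for each of the 3. On the same scale Cdk15 differed by 0.23, Cdk14 by -0.13, Cdk16 by -0.37, Cdk18 by -0.44 and Cdk17 by -0.51, all with overlap, and Ccny by -0.85, without overlap. This scale lowers the difference of every gene by the same 0.557, the difference of the marker mean itself. That of E2f5 thus moved from -1.10 to -1.66, without overlap, a shift fixed in advance.

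**Figure D3:**
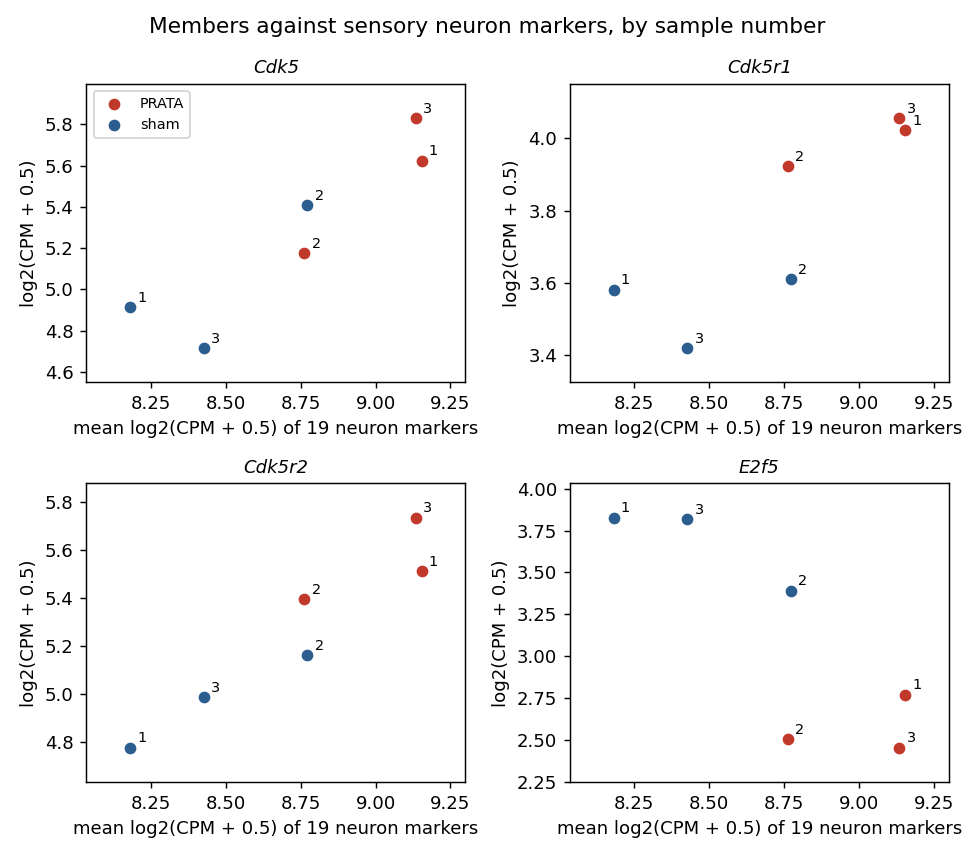
Level of Cdk5, Cdk5r1, Cdk5r2 and E2f5 against the mean level of 19 sensory neuron markers, both as log2(CPM + 0.5), with 1 point per sample, PRATA in red and sham in blue, numbered by replicate. Sham replicate 2 and PRATA replicate 2 have nearly the same marker level, where Cdk5 is higher in the sham sample. Cdk5r1 and Cdk5r2 are higher in the PRATA sample, and E2f5 in sham replicate 2 lies above all PRATA samples. Because the groups of Cdk5r1, Cdk5r2 and E2f5 do not overlap, every PRATA and sham pair gives this order for them. For these genes the order was thus fixed in advance, and the pair tests nothing.

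The PCTAIRE and PFTAIRE kinases are relatives of Cdk5 that are found in neurons but not in neurons alone, and several are activated by the membrane-bound cyclin Y. Cdk15 was at 2.84, 3.03 and 3.08 CPM after PRATA and 1.24, 1.25 and 2.17 CPM after the sham operation, which corresponds to 8 to 39 reads per sample. All PRATA samples were higher, with a log2 fold change of 0.93 (SE 0.40, adjusted p = 0.266, edgeR), but an unadjusted p under 0.05 was reached in 2 of 15 fits, and it was lost without any 1 sample other than sham replicate 3, with log2 fold changes of 0.75 to 0.94. Cdk14 was at 240, 180 and 213 CPM after PRATA and 145, 187 and 140 CPM after the sham operation, again with sham replicate 2 above PRATA replicate 2 and a log2 fold change of 0.42 (adjusted p = 0.296, edgeR). Cdk16 lay at 107 to 122 CPM after PRATA and 93.0 to 103 CPM after the sham operation without overlap, a difference of 0.18 on the log2 scale with an unadjusted p of 0.256. Cdk17 and Cdk18 overlapped, with log2 fold changes of -0.014 and 0.046. Ccny, the gene of cyclin Y, ran opposite to these kinases, at 19.5 to 23.5 CPM after PRATA and 23.9 to 29.2 CPM after the sham operation (log2 fold change -0.30, adjusted p = 0.383, edgeR).

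Regulators of CDKs outside the families were read from a list of 19, all tested. Of these, 15 had a log2 fold change above 0, beside 52.0% of all genes, and 2 were higher at an unadjusted p under 0.05 with 0 lower, beside 8.19% and 10.1% of all genes. Capn1, a calpain of the kind that cleaves p35 to the more stable p25, averaged 96.7 CPM after PRATA and 63.8 CPM after the sham operation (log2 fold change 0.60, adjusted p = 0.225, edgeR). Fzr1, which directs the anaphase-promoting complex in resting cells, was higher by 0.52 and Fbxw7, the receptor of a ligase that removes cyclin E, by 0.40 with an unadjusted p of 0.0538.

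Among the members of transcription, 3 were lower at an unadjusted p under 0.05 and none higher, beside 10.1% and 8.19% of all genes. The log2 fold change was above 0 for 4 of 11, beside 52.0% of all genes, with a median of -0.19. Ccnt1 (ENSRNOG00000053054) encodes cyclin T1, the partner of Cdk9 in P-TEFb, which releases paused RNA polymerase II. It was at 12.5, 12.2 and 11.9 CPM in PRATA replicates 1, 2 and 3 and at 21.8, 16.1 and 23.3 CPM in sham replicates 1, 2 and 3. The PRATA samples lay within 12.2 ± 0.330 CPM (SD, n = 3), below all sham samples, and the log2 fold change was -0.75 (SE 0.20, adjusted p = 0.168, edgeR). An unadjusted p under 0.05 was reached in 14 of 15 fits, the exception being the 4 samples with the lower share of 7SL RNA reads, at -0.69. Cdk9 itself was at 50.5, 44.0 and 55.4 CPM after PRATA and 51.9, 43.4 and 52.5 CPM after the sham operation. The 2 groups covered the same range, with a log2 fold change of 0.019 (SE 0.17, adjusted p = 0.965, edgeR), a sign that turned with DESeq2 size factors (-0.0057) and with library size alone (-0.011). Ccnt2, which encodes the other T-type cyclin, had a log2 fold change of -0.058 and overlapping groups.

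Cdk7 is the kinase of the general factor TFIIH and also activates other CDKs. It was at 15.5, 15.6 and 19.5 CPM after PRATA and 23.1, 23.1 and 27.9 CPM after the sham operation, with all PRATA samples lower and a log2 fold change of -0.55 (SE 0.19, adjusted p = 0.205, edgeR). It lost its call without PRATA replicate 1 (-0.52), PRATA replicate 2 (-0.49) or sham replicate 3 (-0.45). Its cyclin, Ccnh, had a log2 fold change of -0.42 with an unadjusted p of 0.117, and sham replicate 2 at 21.1 CPM lay within the PRATA range of 17.8 to 22.6 CPM. Ccnc, the cyclin of the Mediator kinase module, was at 32.7, 24.2 and 21.6 CPM after PRATA and 34.8, 30.4 and 55.2 CPM after the sham operation. The groups overlapped, the log2 fold change was -0.62 with an unadjusted p of 0.0498, and it lost its call without PRATA replicate 2 (-0.57), PRATA replicate 3 (-0.50) or sham replicate 3 (-0.31). Cdk19, a kinase of the same module, had a log2 fold change of 0.048. Ccnk, Cdk12 and Cdk13, which form the kinases of transcript elongation, had log2 fold changes of -0.19, 0.038 and -0.19, all with overlap. Cdk10 was the transcriptional member whose PRATA samples were all higher, at 18.9 to 23.5 CPM against 14.6 to 18.7 CPM, with a log2 fold change of 0.35 and an unadjusted p of 0.101.

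Partners of these kinases were read from a list of 29, of which 28 were tested. Of these, 1 was higher and 3 lower at an unadjusted p under 0.05, beside 8.19% and 10.1% of all genes, with a median log2 fold change of -0.023. Gtf2h1, a core subunit of TFIIH, was lower by 0.50 on the log2 scale without overlap, Med13 of the Mediator kinase module had a log2 fold change of -0.65 with overlap, and Nelfcd of the pausing factor NELF was higher by 0.53.

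Of 10 satellite glial markers, 9 had a log2 fold change below 0, with a median of -0.47. The summed marker level was highest among PRATA samples in replicate 2, at 6462 CPM, of which Apoe made up 5229 CPM. E2f5, E2f4, Ccnt1 and Cdk7 were named because their groups did not overlap. That they were lower in this PRATA sample than in every sham sample was thus fixed in advance. Among sham samples the sum was lowest in replicate 2, at 4502 CPM beside 7721 and 8754 CPM. E2f5, E2f4 and Ccnt1 were also lowest in sham replicate 2 among the sham samples, while Cdk7 was at 23.1 CPM in both sham replicates 1 and 2. Sox10 was the marker of this list with an unadjusted p under 0.05, at a log2 fold change of -1.63. Set against each sample's mean log2 level of the 10 satellite glial markers, the difference between the groups was -0.65 for E2f5, without overlap, and -0.39, -0.25 and -0.086 for E2f4, Ccnt1 and Cdk7, each with overlap. Relative to the sensory neuron markers the differences of these 4 genes ranged from -1.66 to -1.10, without overlap. The satellite glial scale raises the difference of every gene by 0.453 and the neuron scale lowers it by 0.557, so these shifts were fixed in advance. Of the 9 fibroblast markers found, 8 were lower, with a median of -0.52, and summed levels were 390 to 2126 CPM after PRATA and 1085 to 2050 CPM after the sham operation. All 10 Schwann cell markers had a log2 fold change above 0, with a median of 0.61 and summed levels of 877 to 1533 and 674 to 883 CPM. One of them, Ncmap, had 7, 5 and 2 reads in sham replicates 1, 2 and 3. It passed the filter on low counts only through its PRATA samples, so its direction is no support. Beside each of these marker counts, 52.0% of all genes tested had a log2 fold change above 0. Of the macrophage and endothelial markers tested, 8 of 11 and 8 of 9 were above 0, with overlapping sums. Nerve injury genes were above 0 for 9 of 11, beside 52.0% of all genes. At an unadjusted p under 0.05, 6 were higher and 1 lower, beside 8.19% and 10.1% of all genes. Sox11, Csf1 and Atf3 had log2 fold changes of 1.496, -0.80 and 1.43. The summed levels of this list overlapped, at 1134 to 2290 CPM after PRATA and 1088 to 1247 CPM after the sham operation. No marker of these cell types was at 0 in every sample. The part of these cell types in the results was not tested.

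Of the remaining members, Ccng2 had the smallest p of those higher after PRATA. It encodes cyclin G2, an unusual cyclin that is linked to leaving the cell cycle. Ccng2 (ENSRNOG00000002089) was at 28.0, 24.2 and 23.0 CPM in PRATA replicates 1, 2 and 3 and at 16.0, 15.5 and 12.2 CPM in sham replicates 1, 2 and 3. Every PRATA sample was higher by a wide margin, with means of 25.1 ± 2.61 and 14.5 ± 2.05 CPM (SD, n = 3) and a log2 fold change of 0.79 (SE 0.19, adjusted p = 0.157, edgeR). It kept an unadjusted p under 0.05 in all 15 fits, with log2 fold changes of 0.68 to 0.92. Relative to the sensory neuron markers its difference was 0.21, with overlapping groups. Ccni, a cyclin known to pair with Cdk5, did not follow Cdk5 and lay at 105 to 121 CPM in all samples with a log2 fold change of 0.0018. Ccnj had a log2 fold change of -0.74 and Cdk20 one of 0.31, both with overlap, and Cdkn2aip and Cdkn2aipnl, which share only the start of their names with the inhibitors, lay at -0.015 and 0.13.

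**Figure D4:**
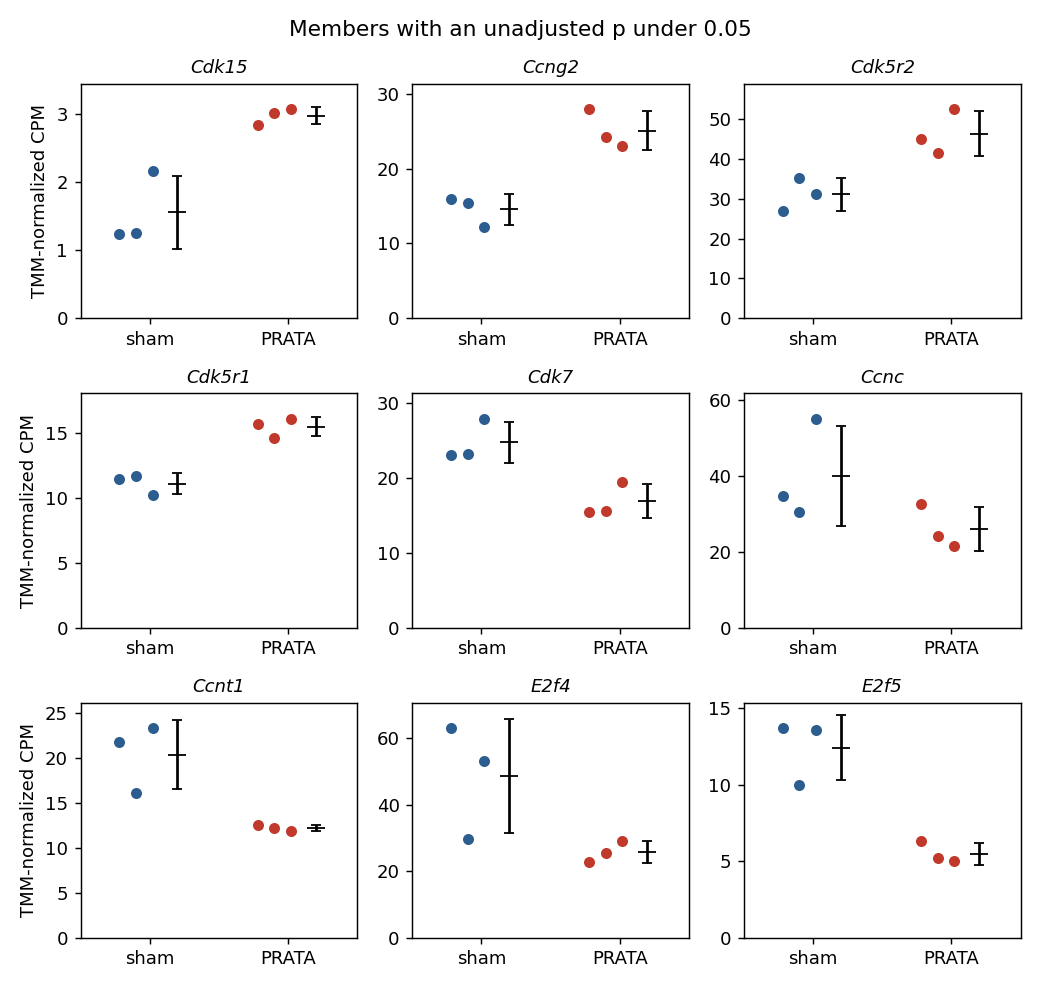
TMM-normalized CPM of the 9 members with an unadjusted p under 0.05, with 1 point per sample, sham in blue and PRATA in red, and the mean with its SD in black; each axis starts at 0. Cdk15, Ccng2, Cdk5r2 and Cdk5r1 are higher after PRATA and Cdk7, Ccnc, Ccnt1, E2f4 and E2f5 lower, and the groups overlap for Ccnc.

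Sham replicate 2 was the sham sample nearest to the PRATA samples in 6 of the 9 genes with an unadjusted p under 0.05, E2f4, E2f5, Cdk5r1, Cdk5r2, Ccnc and Ccnt1. Without this sample, 8 members were higher and 7 lower at an unadjusted p under 0.05, together 27.8% of the 54 tested beside 27.6% of all genes. In the same fit 3 had an adjusted p under 0.05 (edgeR), E2f4, E2f5 and Ccnt1, where 4.67% of all genes did. The higher members then included Cdk5, Cdk14, Rbl2, Cdk10 and Ccna1 beside Cdk5r1, Cdk5r2 and Ccng2, and the lower ones Cdk6 and Ccnh beside the 5 named above. Of these, Ccna1 passed the filter of this fit only through its PRATA samples, so its call is no support. With 3 samples against 3, an exact two-sided permutation test cannot give a p under 0.10, which was the value for each of the 8 named members whose groups did not overlap.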

How the data were processed

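RNA of neurons from L1-L2 DRGs of SHRs was measured in 3 PRATA and 3 sham samples. The deposited table holds raw read counts per gene, made by the authors without normalization. The paper names HISAT2, StringTie and Cuffdiff, while the submitters' processing notes list STAR 2.7.3a, RSEM and DESeq2. The step that made these counts, its strand setting, the genome build and the annotation are not given in the sources used here, so reads of overlapping antisense genes could not be told apart.

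The tools were edgeR 4.0.16, DESeq2 1.42.0 and limma 3.58.1 under R 4.3.3, and Python 3.11.15 with matplotlib 3.10.9 for the figures. Low genes were removed by filterByExpr (count at least 10, total at least 15), libraries were scaled by TMM, and the 6 samples entered edgeR's quasi-likelihood test of PRATA over sham, with p-values adjusted by Benjamini-Hochberg over every gene fitted. Standard errors are the log2 fold change divided by the square root of F. Exact permutation tests (scipy 1.17.1) and marker-relative differences used log2(CPM + 0.5). A floor of 3 counts covers counting error only. The fits were tested on simulated data.

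The members and gene lists were chosen with earlier results of these data known. Full statistics were given to members with an unadjusted p under 0.05 and groups without overlap, at most 12, and to Ccnd1, Cdkn1a, Cdk1, Ccnb1, Cdk5, Cdk5r1, Cdk9 and Rb1. Of the other lists, up to 3 genes with the smallest p were named, along with genes singled out after their values were seen. Some genes that this rule names, and the list that holds one of them, are not reported here. Alternatives were DESeq2 size factors, library size alone, no filter, DESeq2, voom with quality weights, protein-coding genes alone, the replicate block, each sample left out, and the 4 samples with the lower share of 7SL RNA reads.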

Additional observations from a re-analysis of the deposited data

How the results depend on the processing

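The number of members at an unadjusted p under 0.05 (4 higher, 5 lower) was 2 higher with library size alone, 2 higher in DESeq2, 7 higher and 8 lower with voom, and 1 higher and 3 lower in the 4 samples with the lower share of 7SL RNA reads. Of all genes, 16.8% passed this threshold with library size alone, 18.5% in DESeq2 and 30.9% with voom. In the 4 samples 12.9% did, and in the 6 samples with edgeR 18.3%. The members' shares, in the same order, were 13.2%, 13.2%, 28.3%, 7.55% and 17.0%. With each sample left out the members' number ran from 1 to 8 higher and from 3 to 7 lower. Both directions together came to 9.43% to 27.8% of the members tested, beside 8.91% to 27.6% of all genes. An adjusted p under 0.05 was reached by 4 members in DESeq2, by 4 with voom and by 0 to 3 with a sample left out. Of all genes, 4.99% reached it in DESeq2, 7.86% with voom and 4.67% without sham replicate 2. The replicate block gave 2 higher members, with Cdk5r1 and Cdk15 losing their calls, and 4 lower, with Ccnc losing its call. Together these were 11.3% of the members tested, beside 10.2% of all genes. Same-numbered samples deviated from their group means with r of -0.388, -0.105 and -0.357 across genes, which are not independent replicates, so the numbers gave no sign of pairing. The mitotic median log2 fold change was 0.027 without the filter and 0.52 with voom, the neuronal median 0.55 with voom, and the transcriptional median -0.036 in the 4 samples. With a sample left out these medians ran from 0.064 to 0.82, from 0.30 to 0.57 and from -0.24 to -0.030, and the G1 median from -0.24 to -0.079. The sign of Cdk9 turned with DESeq2 size factors (-0.0057), library size alone (-0.011), DESeq2 (-0.0071), voom (-0.022), protein-coding genes alone (-0.013) and the 4 samples (-0.036), and ran from -0.062 to 0.11 with a sample left out. Ccnd1 was at 0.14 in the 4 samples and ran from -0.63 to 0.076, Rb1 from -0.045 to 0.15 and Cdkn1a from -0.082 to 0.46. Relative to the neuron markers, an alternative added after seeing the data, Cdk5r1 was at -0.094. The cause of these differences was not tested. Depth limits the 5 members that were not tested and the mitotic members, which hold 61 to 147 reads per sample in all.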
